A study of Mus musculus with 14 samples.

Results

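A set of 10 genes of the neutrophil granule and cytosol were followed by the stage of neutrophil maturation at which their proteins are made. Members were chosen by symbol: the probe sets whose platform annotation gives exactly Mpo, Elane, Prtn3 or Ctsg (primary granule), Ltf, Camp or Ngp (secondary granule), or S100a8, S100a9 or Anxa1 (late, cytosolic). This gave 10 genes of the 18193 with a probe set of their own, on 11 probe sets. All 10 were among the 13453 genes bright enough to be tested, and all 11 probe sets passed that filter on brightness.

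The RNA came from 2 populations of non-blood cells sorted from mouse bone marrow, and was hybridised to 14 Affymetrix mouse arrays, 1 per sample. The first population, called osteoblasts in the labels, was GFP+ and negative for CD45, ter119 and CD31. The second, called endothelial cells, was CD31+ and negative for CD45, ter119 and GFP. In each population mice given 250 ug/kg of G-CSF under the skin were set against untreated mice, giving 3 G-CSF and 3 untreated arrays of pOBcol2.3-GFP cells, and 4 G-CSF and 4 untreated arrays of CD31 cells. All groups are labelled as wild type C57BL/6J, aged 6 to 8 weeks, and all carry the pOBcol2.3-GFP transgene, whose GFP is driven in osteoblasts by part of the promoter of type I collagen. Treatment lasted 5 days by the labels of the treated arrays, whereas the labels of the untreated ones mention 7 days of G-CSF, or vehicle. Whether replicates came from different animals is not stated, and the p-values then cover the spread among these samples alone.

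Neutrophils fill their granules in the order in which they mature. Promyelocytes make the serine proteases and myeloperoxidase of the primary (azurophil) granule, myelocytes and metamyelocytes then make the lactoferrin and antimicrobial peptides of the secondary (specific) granule, and the S100 proteins of the cytosol accumulate as the cell matures. Messenger RNA of each set fades once its stage has passed, so the balance between the sets is commonly read as a mark of stage. G-CSF is the main cytokine that drives the production of neutrophils in the marrow. These genes are known from neutrophils and their precursors, blood cells that carry CD45, which both sorting gates were set to leave out. They are not all confined to blood cells.

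Both sorts carried the markers of their name. Of 7 measured osteoblast markers 3 were called higher in untreated pOBcol2.3-GFP cells than in untreated CD31 cells, and 7 after G-CSF (adjusted p under 0.05 in limma's moderated test over 13453 genes, as in all calls below). Of all genes 13.6% were called higher untreated and 17.5% after G-CSF. In both comparisons 9 of 9 endothelial markers were called lower, as were 1722 of all genes untreated and 1936 after G-CSF. Osteoblast markers were not absent from CD31 cells. Their summed intensity there ran from 40277 to 92396.5 untreated and from 5403 to 51657 after G-CSF. In pOBcol2.3-GFP cells it was 149398, 131629 and 155426 after G-CSF and 153059, 76793 and 195472 untreated. Blood markers were present on every array too. Ptprc, which encodes CD45, gave intensities of 14375, 5369 and 2564 in G-CSF and 1038, 4219 and 599 in untreated pOBcol2.3-GFP cells. In CD31 cells it gave 3042, 1985, 3358 and 3623 after G-CSF and 1405, 1468, 1258 and 533 untreated. Untreated pOBcol2.3-GFP replicate 2 stood apart from the other arrays of its group: the summed intensity of 5 common leukocyte markers was 44543.8 there and 3350 and 3942 on replicates 1 and 3. It was also the highest of its group in 11 monocyte and macrophage markers (28273 against 2401 and 3680.2), in 7 B lineage markers (7441 against 545 and 969.8) and in 7 erythroid markers (21067 against 4214 and 5782). The same array was highest in 5 eosinophil, basophil and mast cell markers (12545.9 against 158.9 and 373.3). In 6 megakaryocyte markers it had 4633 against 1099.6 and 1284, and in 2 T and NK cell markers 2559 against 153.9 and 133.6. Results on the 10 genes and counts over gene lists in pOBcol2.3-GFP cells are given with and without it. Among CD31 arrays G-CSF replicate 4 stood apart in erythroid markers (6027, against 442 to 744 on the other 3 of its group) and in 5 eosinophil, basophil and mast cell markers (11939, against 1181 to 2230). In whole-population RNA, fewer blood cells and less RNA per blood cell cannot be told apart.

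Mpo encodes myeloperoxidase, Elane neutrophil elastase, Prtn3 proteinase 3 and Ctsg cathepsin G. Elane and Prtn3 are neighbours on chromosome 10. The 300 bases around the start of each primary granule gene (250 before and 50 after) are shown because the 4 genes moved together over the arrays, as described below. They are from RefSeq in build GRCm38.p6, 5′ to 3′ in the direction of the gene, with capitals at matches to GAGGAA, a core of the site of the myeloid factor PU.1, or TTNNGCAA, a core of the C/EBP site, each searched on both strands. The windows lie at chr11:87793534-87793833, plus strand, chr10:79886062-79886361, plus strand, chr10:79879417-79879716, plus strand and chr14:56102525-56102824, minus strand, in that order.
Mpo: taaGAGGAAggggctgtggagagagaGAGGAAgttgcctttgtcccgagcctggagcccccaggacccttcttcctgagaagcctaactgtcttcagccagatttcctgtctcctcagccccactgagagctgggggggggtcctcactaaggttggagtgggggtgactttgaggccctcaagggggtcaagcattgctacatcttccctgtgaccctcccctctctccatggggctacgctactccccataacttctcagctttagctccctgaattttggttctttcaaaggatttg
Elane: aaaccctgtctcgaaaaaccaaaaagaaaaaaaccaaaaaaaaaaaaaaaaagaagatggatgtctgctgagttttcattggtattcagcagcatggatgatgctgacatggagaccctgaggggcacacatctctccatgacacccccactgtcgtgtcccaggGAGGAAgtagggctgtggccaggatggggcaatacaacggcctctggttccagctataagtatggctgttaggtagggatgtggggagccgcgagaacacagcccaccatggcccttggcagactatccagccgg
Prtn3: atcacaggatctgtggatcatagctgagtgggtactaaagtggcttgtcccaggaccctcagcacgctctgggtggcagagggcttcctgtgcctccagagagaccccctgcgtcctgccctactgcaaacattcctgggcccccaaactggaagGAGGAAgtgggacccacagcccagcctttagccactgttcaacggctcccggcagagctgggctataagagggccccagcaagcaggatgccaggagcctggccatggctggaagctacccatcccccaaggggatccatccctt
Ctsg: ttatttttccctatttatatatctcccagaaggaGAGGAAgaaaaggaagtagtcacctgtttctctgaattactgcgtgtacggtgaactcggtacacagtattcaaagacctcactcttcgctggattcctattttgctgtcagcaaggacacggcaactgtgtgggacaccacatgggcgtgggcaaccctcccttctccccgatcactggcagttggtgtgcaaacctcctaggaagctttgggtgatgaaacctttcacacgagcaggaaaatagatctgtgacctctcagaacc
All 4 held GAGGAA on the strand of the gene, with first bases at -247 and -224 from the start in Mpo, -85 in Elane, -95 in Prtn3 and -216 in Ctsg, and none held TTNNGCAA. Over all 10 members, 7 windows held GAGGAA, against 28.3% of 32841 RefSeq mouse promoter windows of the same length, and 4 held TTNNGCAA, against 10.8%. These matches are letters in a window, and their use as binding sites was not measured here.

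Ltf encodes lactoferrin, Camp the cathelicidin peptide and Ngp neutrophilic granule protein. Windows of Ltf (chr9:111019042-111019341, plus strand) and Ngp (chr9:110419558-110419857, plus strand) are shown as the secondary granule genes with TTNNGCAA, which no primary granule window held.
Ltf: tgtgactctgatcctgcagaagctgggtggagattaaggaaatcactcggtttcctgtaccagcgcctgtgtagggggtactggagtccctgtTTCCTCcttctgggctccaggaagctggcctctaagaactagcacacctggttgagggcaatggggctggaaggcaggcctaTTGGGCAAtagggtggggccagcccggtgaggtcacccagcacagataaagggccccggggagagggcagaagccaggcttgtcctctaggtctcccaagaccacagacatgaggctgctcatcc
Ngp: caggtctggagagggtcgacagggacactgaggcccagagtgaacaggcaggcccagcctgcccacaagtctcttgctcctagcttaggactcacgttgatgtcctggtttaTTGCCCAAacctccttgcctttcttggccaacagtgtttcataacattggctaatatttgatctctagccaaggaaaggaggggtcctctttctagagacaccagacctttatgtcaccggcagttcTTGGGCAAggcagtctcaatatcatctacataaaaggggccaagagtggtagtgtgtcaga
TTNNGCAA began at -75 in Ltf and at -138 and -11 in Ngp, and the match to GAGGAA in Ltf, at -157, was on the opposite strand. The Camp window held neither motif. The motif matches overlapped each other in none of these windows.

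**Figure D1:**
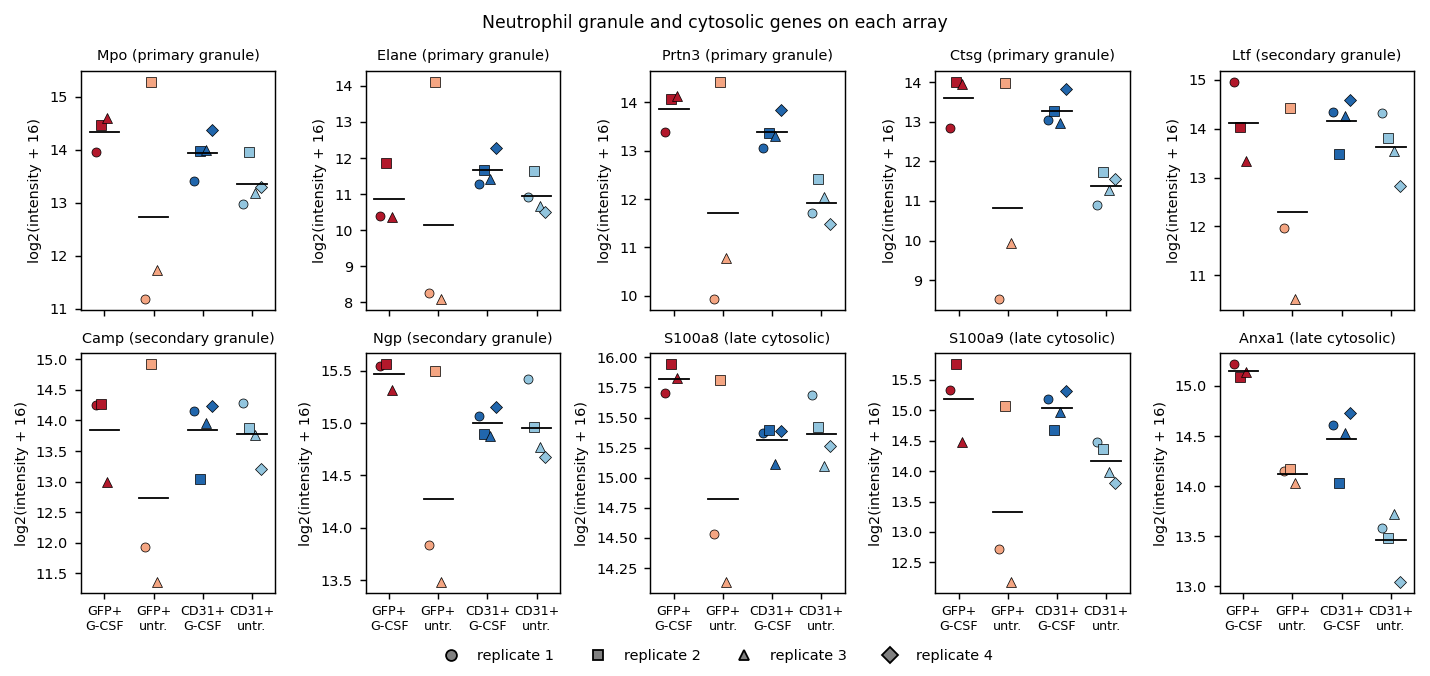
Level of each of the 10 genes on each of the 14 arrays, as log2 of intensity plus 16, with marker shape for the replicate number and a bar at the group mean. Groups run from left to right as pOBcol2.3-GFP cells (GFP+) with G-CSF and untreated (untr.), then CD31 cells with G-CSF and untreated. Square markers show replicate 2, which in untreated pOBcol2.3-GFP cells lies far above replicates 1 and 3 for every gene but Anxa1.

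The first question was whether G-CSF changed the primary granule genes in pOBcol2.3-GFP cells. Ctsg had intensities of 7295, 16515 and 15681 in G-CSF cells, against 352, 16107 and 959 in untreated cells. Prtn3 had 10674, 17251 and 17847 in G-CSF cells, against 961, 22102 and 1749 in untreated cells. Mpo had 15874, 22529 and 24730.3 in G-CSF cells, against 2313, 39983 and 3384 in untreated cells. In all 3 genes the G-CSF arrays lay above untreated replicates 1 and 3, while untreated replicate 2 lay within or above the G-CSF range. Elane followed the same order at 1335, 3692 and 1309 in G-CSF cells, against 289, 17816 and 257 in untreated cells, with replicate 2 above every other array of the 14.

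With all arrays no primary granule gene was called. The log2 change (G-CSF minus untreated, with its SE) was 2.79 ± 0.90 for Ctsg, 2.14 ± 0.77 for Prtn3, 1.60 ± 0.72 for Mpo and 0.72 ± 1.10 for Elane, with adjusted p from 0.310 for Ctsg to 0.927 for Elane. Over the 10 members 0 were called, where 0.23% of all 13453 genes were in either direction and 0.186% higher, and 8 had an unadjusted p under 0.05, where 8.85% of all genes did. All 10 changes were positive, with a median of 1.40, against -0.04 over all genes. Without untreated replicate 2 all 4 primary granule genes were called higher: Ctsg by 4.37 ± 0.42 on the log2 scale, a 20.7-fold difference (adjusted p = 4.78e-05), Prtn3 by 3.50 ± 0.33, Mpo by 2.88 ± 0.32 and Elane by 2.70 ± 0.43 (adjusted p = 0.00199). In that fit 10 of 10 members were called higher, where 3.51% of 13450 genes were called in either direction and 3.16% higher. These calls rest on leaving out that 1 array.

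The secondary granule genes showed the same division of the untreated arrays. Ngp had 47788, 48362 and 40769 in G-CSF cells, against 14587, 46374 and 11438 in untreated cells. Camp had 19448, 19728 and 8156 in G-CSF cells, against 3878, 30948 and 2616 in untreated cells. Ltf had 32049.9, 16871 and 10334 in G-CSF cells, against 4013, 21869.7 and 1444 in untreated cells. For each of the 3 genes untreated replicates 1 and 3 were below every G-CSF array and replicate 2 was not. Changes were 1.81 ± 0.72 for Ltf, 1.20 ± 0.38 for Ngp and 1.10 ± 0.68 for Camp, none called (adjusted p from 0.284 to 0.708). Without untreated replicate 2 they were 2.87 ± 0.51, 1.82 ± 0.22 and 2.19 ± 0.42, and all 3 were called (adjusted p = 0.00483, 0.000283 and 0.00762).

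S100a8 and S100a9 encode the subunits of calprotectin, are neighbours on chromosome 3, and make up much of the soluble protein of a neutrophil. S100a9 had 41283, 55384 and 22926 in G-CSF pOBcol2.3-GFP cells, against 6759, 34334 and 4622 in untreated cells. S100a8 had 53245, 62955 and 58144 in G-CSF cells, against 23724, 57475 and 17989 in untreated cells. Both again set untreated replicate 2 among the G-CSF arrays. The changes, 1.87 ± 0.54 for S100a9 and 1.00 ± 0.32 for S100a8, were not called (adjusted p = 0.239 and 0.289), and without untreated replicate 2 they were 2.74 ± 0.33 and 1.49 ± 0.20 and were called (adjusted p = 0.00028 and 0.00061). With the replicate number as a block S100a9 was called with all arrays (adjusted p = 0.0495), and 64 of all genes instead of 31. S100a8 was close to the top of the scale, at 91.2% to 98.1% of the brightest probe set of the same array after G-CSF and at 37.7%, 96.7% and 22.3% untreated, and its probe set is of a type that can also bind related transcripts.

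Anxa1, which encodes annexin A1, a cytosolic protein of mature neutrophils that many other cells make as well, behaved differently from the other 9. Its brighter probe set had 38028, 34946 and 36059.8 in G-CSF pOBcol2.3-GFP cells, against 18218, 18426 and 16722 in untreated cells. Here untreated replicate 2 was close to replicates 1 and 3, and the groups did not overlap, as in 3.61% of all genes in this direction. The change was 1.03 ± 0.21 on the log2 scale, 2.04-fold, with an adjusted p of 0.0651 that missed the threshold, and 1.06 ± 0.23 without untreated replicate 2 (adjusted p = 0.0175). Its second, dimmer probe set, at 212 to 1062 in G-CSF and 189 to 917 in untreated cells, changed by 0.40 ± 0.57, not called, and the difference between the probe sets was not tested.

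**Figure D2:**
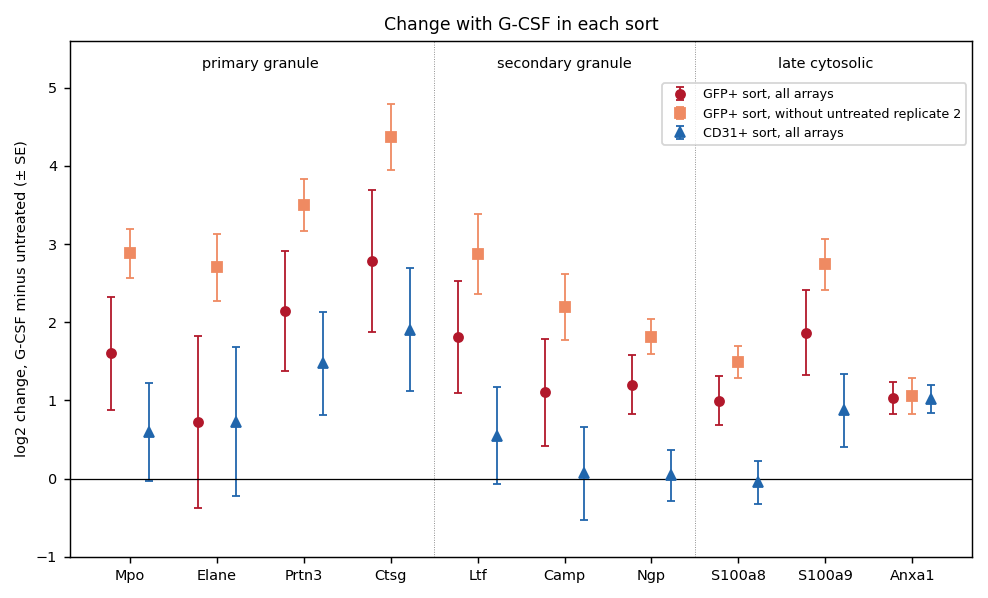
Change in level of each gene with G-CSF (G-CSF minus untreated, log2, points with bars of 1 SE from limma), for pOBcol2.3-GFP cells (GFP+ sort) with all arrays and without untreated replicate 2, and for CD31 cells. Values of pOBcol2.3-GFP cells without replicate 2 lie above those with it for every gene, least so for Anxa1 at 1.06 and 1.03, and in CD31 cells the secondary granule genes and S100a8 lie nearest to 0.

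In CD31 cells the primary granule genes were measured on 4 arrays a group, and G-CSF replicate 4, listed last, was the highest of its group in all 4 genes. Ctsg had 8356, 9918, 7964 and 14507 in G-CSF cells, against 1903, 3401, 2479 and 2972 in untreated cells. Prtn3 had 8482, 10479, 10142 and 14651 in G-CSF cells, against 3359, 5479, 4196 and 2853 in untreated cells. Every G-CSF array was above every untreated array in both genes. The other 2 primary granule genes overlapped between groups: Mpo had 10837, 16068, 16405 and 21309.5 in G-CSF cells, against 8031, 15819, 9269 and 9999 in untreated cells. Elane had 2471, 3257, 2744 and 4941 in G-CSF cells, against 1915, 3191, 1619 and 1450.4 in untreated cells.

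Changes were 1.91 ± 0.78 for Ctsg (3.75-fold), 1.47 ± 0.66 for Prtn3 (2.78-fold), 0.73 ± 0.95 for Elane and 0.59 ± 0.63 for Mpo, none called in the fit of all arrays (adjusted p from 0.289 for Ctsg to 0.856 for Elane). That fit shares its spread with the pOBcol2.3-GFP groups. In CD31 arrays fitted alone Ctsg (adjusted p = 0.00238) and Prtn3 (0.00803) were called higher, with the same changes and an SE of 0.23 and 0.22, and 3.43% of all genes were called in either direction and 1.78% higher. Without untreated pOBcol2.3-GFP replicate 2 both were called as well (adjusted p = 0.00809 and 0.00856), where 4.12% of genes were called in either direction and 1.41% higher. Mpo (0.223) and Elane (0.185) did not pass with the CD31 arrays alone. Without G-CSF CD31 replicate 4 the changes were 1.72 for Ctsg, 1.32 for Prtn3, 0.52 for Elane and 0.45 for Mpo, none called.

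Secondary granule genes did not follow Ctsg and Prtn3 in CD31 cells. Ngp had 34432, 30379, 30169.9 and 36499 in G-CSF cells, against 43799, 31850.2, 28004 and 26127 in untreated cells. Camp had 18288, 8409, 15918 and 19324 in G-CSF cells, against 20014, 15084, 13879 and 9399 in untreated cells. Ltf had 20673, 11486, 19521 and 24476 in G-CSF cells, against 20370.2, 14362, 11849.9 and 7207 in untreated cells. The groups overlapped in all 3 genes. The log2 change was 0.04 for Ngp (95% confidence interval -0.65 to 0.74), 0.07 for Camp (-1.19 to 1.32) and 0.55 for Ltf (-0.78 to 1.87), so a change of more than 1 is outside the interval only for Ngp. Ngp was also bright, at 69.4% to 82.7% of the brightest probe set of the same array after G-CSF and at 47.5% to 69.0% untreated. Whether a rise of that size could still show at this brightness was not tested, so the interval cannot exclude it. None of the 3 was called in any other setting tried, the fit of CD31 arrays alone included.

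The late genes were split. S100a8 had 42419, 43106, 35478 and 42782 in G-CSF CD31 cells, against 52640.2, 43960.1, 35025 and 39265 in untreated cells, a change of -0.05 ± 0.27 (interval -0.63 to 0.53). S100a9 had 37429, 26030.4, 31999 and 40691 in G-CSF cells, against 22886, 21161, 16206 and 14363 in untreated cells. Its groups did not overlap and the change of 0.87 ± 0.47 was not called (adjusted p = 0.479), passed with CD31 arrays alone (0.0329), and did not without untreated pOBcol2.3-GFP replicate 2 (0.0714). Anxa1 had 24939, 16679, 23596 and 27173 in G-CSF cells, against 12287, 11449.8, 13509 and 8441 in untreated cells, with no overlap. It was the 1 member called, higher by 1.01 ± 0.18 on the log2 scale or 2.02-fold (adjusted p = 0.0176), where 1.6% of all genes were called in either direction and 0.453% higher. Groups did not overlap for 4 of the 10 members (Ctsg, Prtn3, S100a9 and Anxa1), against 4.65% of all genes in that direction, and 3 had an unadjusted p under 0.05, against 13.1% of all genes. The Anxa1 call was lost when its probe sets were averaged (0.72, adjusted p = 0.279), without untreated CD31 replicate 1 (0.0512) and without untreated CD31 replicate 4 (0.0530).

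Stage scores condense these values. A score is the mean over the genes of a stage of each gene's log2 level minus its own mean over the 14 arrays, and is given without a test because the members were chosen with earlier results known. In CD31 cells the primary score averaged 0.68 ± 0.38 after G-CSF and -0.49 ± 0.37 untreated (SD, n = 4 each), and the groups did not overlap. Its genes changed unequally: Ctsg by 1.91 and Prtn3 by 1.47, but Elane by 0.73 and Mpo by 0.59. The last 2 overlapped between groups and were close to Ltf of the secondary score, at 0.55. The secondary score averaged 0.30 ± 0.37 after G-CSF and 0.08 ± 0.46 untreated, and overlapped. The mean of S100a8 and S100a9 on this scale was 0.28 ± 0.16 after G-CSF and -0.13 ± 0.27 untreated. In pOBcol2.3-GFP cells the primary score was 0.26, 1.21 and 0.87 after G-CSF and -2.91, 2.07 and -2.25 untreated, and the secondary score 0.88, 0.58 and -0.16 after G-CSF and -1.46, 0.90 and -2.26 untreated. Differences between G-CSF and untreated means there were 1.81 for the primary and 1.37 for the secondary score, and 3.36 and 2.29 without untreated replicate 2.

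The secondary minus the primary score sets the 3 secondary against the 4 primary members. It averaged -0.38 ± 0.47 in G-CSF CD31 cells and 0.57 ± 0.58 in untreated CD31 cells, a difference of -0.96. Between arrays of the same replicate number it was lower after G-CSF in 4 of 4 pairs of CD31 arrays, by -1.22, -1.04, -0.79 and -0.78, although 1 G-CSF array (0.18) lay above 1 untreated array (0.12). In pOBcol2.3-GFP cells it was 0.62, -0.63 and -1.03 after G-CSF and 1.45, -1.16 and -0.0035 untreated, lower after G-CSF in pairs 1 and 3 (-0.83 and -1.03) and higher in pair 2 (0.53), whose untreated array is the one that stood apart. The mean difference was -0.44 with all arrays, -1.07 without untreated replicate 2 and 0.24 without untreated replicate 1. S100a8 and S100a9 minus the primary score were lower in 4 of 4 pairs of CD31 arrays too (-0.50 to -1.06). For other genes of the same stages the balance of means went the opposite way. This was the mean log2 level of 11 other secondary granule genes minus that of 3 other primary granule genes (Ctsc, Srgn and Cst7). It was 0.27 in G-CSF and -0.27 in untreated CD31 cells, higher after G-CSF in 3 of 4 pairs. In pOBcol2.3-GFP cells it was 0.11 after G-CSF and -0.40 untreated, higher in 3 of 3 pairs. The 3 other primary granule genes moved unequally. In G-CSF and untreated CD31 cells Srgn averaged 13.77 and 13.70, Ctsc 12.31 and 11.71, and Cst7 9.19 and 8.17.

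**Figure D3:**
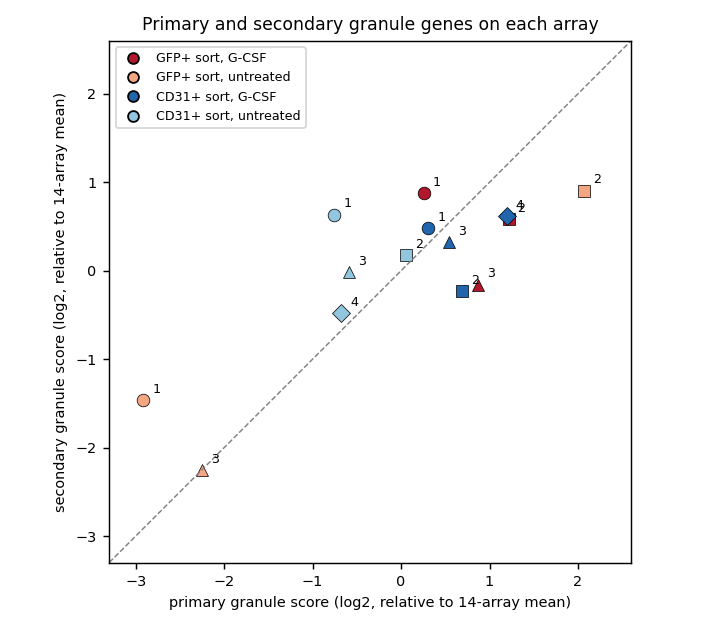
Primary granule score (x axis) against secondary granule score (y axis) of each of the 14 arrays, in log2 units relative to the mean of all arrays, with the replicate number beside each point and a dashed line where the scores are equal. Untreated CD31 arrays lie above the line and 3 of 4 G-CSF CD31 arrays below it, while untreated pOBcol2.3-GFP replicates 1 and 3 lie at the lower left and replicate 2 at the far right, at 2.07 and 0.90.

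Whether the change with G-CSF differed between the sorts was tested as the difference between the changes. No gene of 13453 was called in limma (0% of genes), with 622 genes (4.62%) at an unadjusted p under 0.05. Among members S100a8 (1.05 ± 0.42, unadjusted p = 0.0243) and Ngp (1.16 ± 0.50, unadjusted p = 0.0348) were the 2 with an unadjusted p under 0.05, both larger in pOBcol2.3-GFP cells, and for Anxa1 the difference was 0.02 (95% confidence interval -0.57 to 0.60). Without untreated pOBcol2.3-GFP replicate 2 the change was larger in pOBcol2.3-GFP cells for Mpo (2.29 ± 0.40, adjusted p = 0.0366), Ngp (1.77 ± 0.28, adjusted p = 0.0296) and S100a8 (1.54 ± 0.26, adjusted p = 0.0366), 3 of 10 members where 0.156% of 13450 genes were called.

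Levels were then compared between the sorts under the same treatment. After G-CSF no primary or secondary granule gene was called between pOBcol2.3-GFP and CD31 cells, with differences from -0.79 ± 1.03 for Elane to 0.47 ± 0.35 for Ngp. Ngp and S100a8 were higher in all 3 G-CSF pOBcol2.3-GFP arrays than in all 4 G-CSF CD31 arrays, as were 21.4% of all genes, by 0.47 and 0.51 ± 0.29, neither called. With only the arrays compared both passed (adjusted p = 0.0438 for Ngp and 0.0310 for S100a8), and S100a8 also did without untreated pOBcol2.3-GFP replicate 2 (0.0299). Anxa1 was called higher (0.68 ± 0.19, adjusted p = 0.0149), where 31.9% of all genes were called in either direction and 17.5% higher. In untreated cells Anxa1 was again called higher in pOBcol2.3-GFP cells (0.66 ± 0.19, adjusted p = 0.0208), where 26.4% of genes were called in either direction and 13.6% higher, and the other 9 members were not, with differences from -1.32 for Ltf to -0.20 for Prtn3. Without untreated pOBcol2.3-GFP replicate 2 these 9 were all called lower in pOBcol2.3-GFP cells, from -1.03 ± 0.19 for S100a8 to -2.77 ± 0.41 for Elane, where 17.5% of 13450 genes were called lower and 33.7% in either direction. The Anxa1 calls between sorts were lost with each array centred on its median (0.29 after G-CSF and 0.43 untreated, adjusted p = 0.262 and 0.121) and with quantile normalisation (0.34 and 0.65, adjusted p = 0.303 and 0.0559). With its probe sets averaged, Anxa1 was higher by 1.52 both after G-CSF (adjusted p = 0.00165) and untreated (0.00212), and its dimmer probe set alone by 2.37 (0.00342) and 2.39 (0.00403). With the brighter probe set the calls were also lost after G-CSF without G-CSF CD31 replicate 2 (0.0513), and in untreated cells without untreated pOBcol2.3-GFP replicate 1 (0.0620) or untreated CD31 replicate 4 (0.0670).

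Within groups the primary granule genes varied together, and the secondary granule genes varied with S100a8 and S100a9. Over deviations from group means on 14 arrays, the median correlation was 0.96 over 6 pairs of primary genes, 0.94 over 3 pairs of secondary genes and 0.77 over 12 pairs of a primary and a secondary gene. Most of the last value came from 1 array: on the 13 arrays without untreated pOBcol2.3-GFP replicate 2 it was -0.31 (pairs from -0.65 to 0.39), against 0.69 within the primary genes and 0.80 within the secondary genes. Secondary genes with S100a8 or S100a9 kept 0.77 on those 13 arrays (0.93 on 14), more than S100a8 with S100a9 (0.50 on 13 and 0.89 on 14), and primary genes with S100a8 or S100a9 had -0.12 (0.81 on 14). Anxa1 correlated weakly with the other 9, at a median of 0.15 on 14 arrays and 0.20 on 13. These are descriptions of arrays that share 4 groups and carry no test.

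The genes most like each set were found by Pearson correlation with its score over all 14 arrays. Nearest to the primary score were Nkg7, Plac8, Cst7, Tspoap1 and Ms4a3 (0.97 to 0.99). Nkg7 is better known from NK cells, Cst7 encodes cystatin F, an inhibitor of cathepsins, Ms4a3 marks granulocyte and monocyte progenitors, and Tspoap1 is the next protein-coding gene to Mpo on chromosome 11. Nearest to the secondary score were Chil3, Ltb4r1, Myo1g, Lyz1 and Parvg (0.95 to 0.99), and to S100a8 and S100a9 Chil3, Lcn2, Pcgf5, Tyrobp and Cd52 (0.94 to 0.97). Lcn2 encodes lipocalin 2 of the secondary granule, and Ltb4r1 the receptor for leukotriene B4. Anxa1 had a different company, Cers6, Rassf2, Cpne3, Evi2a and Npepps (0.89 to 0.94). On the 13 arrays without untreated pOBcol2.3-GFP replicate 2 the correlations of these genes were 0.90 to 0.99.

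Other genes of the same stages gave the wider picture. In pOBcol2.3-GFP cells with G-CSF 0 of 11 other secondary granule genes were called and all 11 changes were positive (median 1.52), with Cd177 at 2.52 ± 0.79 and Cybb, a subunit of the oxidase, at 2.29 ± 0.84. In CD31 cells 1 of the 11 was called higher, Hp, which encodes haptoglobin (1.23 ± 0.28, adjusted p = 0.0399), with a median of 1.19, against 0.07 for the 3 secondary members. Among 9 other late neutrophil genes Il1r2, the decoy receptor for interleukin 1, was called higher in both sorts, by 2.83 ± 0.52 in pOBcol2.3-GFP cells (adjusted p = 0.0418) and by 2.53 ± 0.45 in CD31 cells (adjusted p = 0.0182), and all 9 changes were positive in each. Of 3 other primary granule genes 0 were called in either sort (medians 1.06 and 0.60 in pOBcol2.3-GFP and CD31 cells), Srgn, which encodes the granule proteoglycan serglycin, changing by 1.31 ± 0.59 and 0.07 ± 0.51 in pOBcol2.3-GFP and CD31 cells, and Cst7 by 1.06 ± 0.73 and 1.02 ± 0.63. Of 4 tertiary granule and secretory vesicle genes 0 were called in either sort, with Fpr2, a receptor for annexin A1, at 2.57 ± 0.71 and 1.58 ± 0.61, and the gelatinase Mmp9 at 1.66 ± 0.47 and 1.47 ± 0.41. Without untreated pOBcol2.3-GFP replicate 2 the counts called higher in pOBcol2.3-GFP cells were 9 of 11 secondary (Cd177 by 3.64 ± 0.61), 7 of 9 late (Il1r2 by 3.58 ± 0.39), 2 of 3 primary (Srgn by 2.39 ± 0.21, and Cst7) and 2 of 4 tertiary genes (Fpr2 by 3.55 ± 0.56 and Mmp9 by 1.94 ± 0.51).

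Regulators, inhibitors and receptors were listed too. Of 6 granulocyte regulators and progenitor genes 0 were called in either sort, with Ms4a3 at 2.52 ± 0.86 and 1.99 ± 0.75 in pOBcol2.3-GFP and CD31 cells, Gfi1, a repressor needed for neutrophil maturation, at 1.15 ± 0.67 in pOBcol2.3-GFP cells, and Spi1, which encodes PU.1, at 1.14 ± 0.46 in CD31 cells. Of 5 granule protease inhibitors 0 were called, with Serpinb1a, an inhibitor of elastase, proteinase 3 and cathepsin G, at 2.62 ± 0.65 and 1.64 ± 0.56, and Slpi at 1.12 ± 0.73 and 1.20 ± 0.63. Among 3 receptors of calprotectin and annexin A1, Fpr2 is given above, Tlr4 changed by 0.41 ± 0.34 and -0.02 ± 0.30 and Ager by -0.22 ± 0.87 and 0.26 ± 0.75. Without untreated pOBcol2.3-GFP replicate 2, 2 regulators were called higher in pOBcol2.3-GFP cells, Ms4a3 by 4.11 ± 0.30 (adjusted p = 6.59e-06) and Gfi1 by 2.29 ± 0.35 (adjusted p = 0.00147). So were 2 of the 4 inhibitors tested there, Serpinb1a by 3.62 ± 0.43 (adjusted p = 0.000231) and Slpi by 2.16 ± 0.55 (adjusted p = 0.0443), and 1 of 3 receptors, Fpr2.

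Markers of other blood cells did not all move in the direction of the granule genes. With all arrays, median changes in pOBcol2.3-GFP and CD31 cells were -2.38 and -2.95 for erythroid and -1.33 and -1.90 for B lineage markers. In pOBcol2.3-GFP cells without untreated replicate 2 they were -1.96 and -0.42. The summed intensity of 5 common leukocyte markers ran from 20271 to 42872 in G-CSF and from 3350 to 44543.8 in untreated pOBcol2.3-GFP cells, and from 21972 to 40282 in G-CSF and from 10848 to 18802 in untreated CD31 cells. All 5 changes were positive in both sorts and none was called (median 1.98 and 1.27). In pOBcol2.3-GFP cells without untreated replicate 2, 5 of 5 were called higher. The 7 erythroid markers ran from 734 to 2372 in G-CSF and from 4214 to 21067 in untreated pOBcol2.3-GFP cells, and from 442 to 6027 in G-CSF and from 4901 to 14676 in untreated CD31 cells. Of these 3 were called lower in CD31 cells, where 1.14% of all genes were: Ermap (-3.35 ± 0.66), Car1 (-3.33 ± 0.79) and Klf1 (-2.95 ± 0.67). The 7 B lineage markers ran from 480.2 to 572.0 in G-CSF and from 545 to 7441 in untreated pOBcol2.3-GFP cells, and from 349.8 to 1680.2 in G-CSF and from 2309 to 7694 in untreated CD31 cells, with 0 called. Of 11 monocyte and macrophage markers 0 were called, with medians of 0.51 and -0.11 in pOBcol2.3-GFP and CD31 cells. None of 5 eosinophil, basophil and mast cell markers, 6 megakaryocyte markers and 2 T and NK cell markers was called in either sort. Without untreated pOBcol2.3-GFP replicate 2, 2 of 11 monocyte and macrophage markers were called higher in pOBcol2.3-GFP cells. They were C1qc (2.78 ± 0.42, adjusted p = 0.00145) and Csf1r (2.61 ± 0.59, adjusted p = 0.0225). Nkg7, listed as a T and NK cell marker, was also called higher (2.74 ± 0.35, adjusted p = 0.000413). It was the gene nearest to the primary score (0.99), and Klrd1, the other marker of that list, was not called (1.26 ± 0.40, adjusted p = 0.121). No erythroid or B lineage marker was called. In CD31 cells 2 of 7 osteoblast markers were called lower as well, Pth1r (-2.19 ± 0.52) and Alpl (-1.59 ± 0.33). No marker of these lists was at 0 on any array. The part of other blood cells in the changes of the granule genes was not tested.

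**Figure D4:**
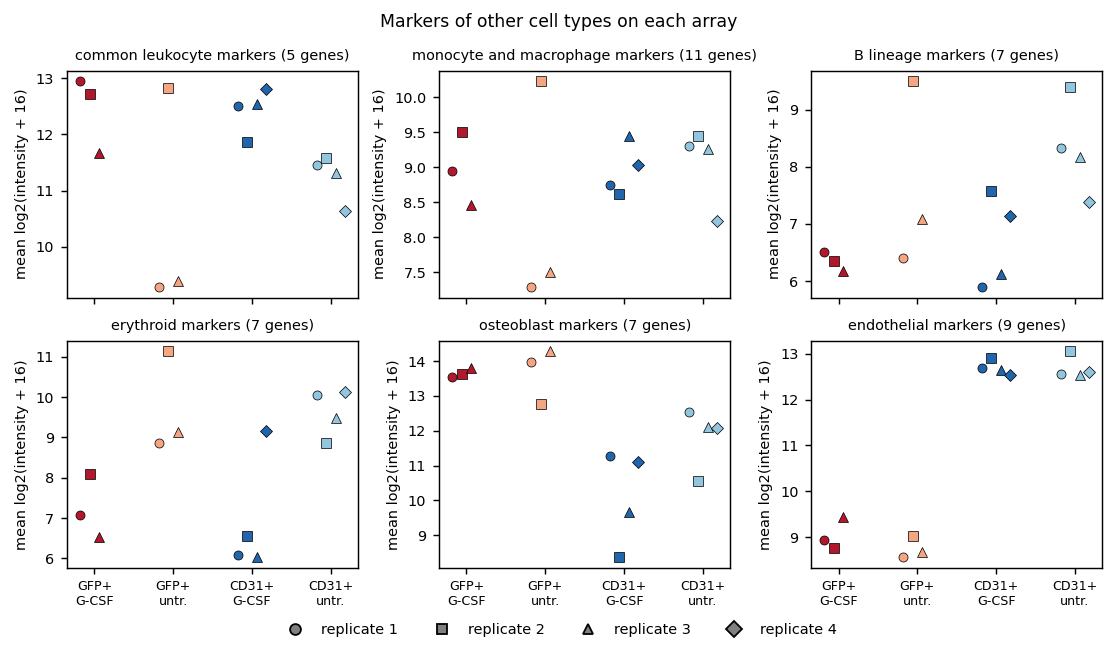
Mean log2 of intensity plus 16 over the markers of 6 other cell types on each of the 14 arrays, with groups and replicate shapes as in the plot of the 10 genes. In pOBcol2.3-GFP cells the common leukocyte markers follow the granule genes, with untreated replicate 2 among the G-CSF arrays. In CD31 cells these markers are higher on every G-CSF array than on every untreated one. Of the 10 genes only Ctsg, Prtn3, S100a9 and Anxa1 separate the CD31 groups in this way. Erythroid and B lineage markers are lower after G-CSF on most arrays, and osteoblast and endothelial markers separate the sorts.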

How the data were processed

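Total RNA was measured on 14 arrays of 45101 probe sets. The deposited table holds intensity on a linear scale, a unit the authors obtained from Affymetrix Expression Console, version 1.1, as the submitters' processing notes say. Its summary algorithm is not given in the sources used here. Arrays had been scaled: the mean trimmed by 2% at each end was 500.0 on every array, and the median log2 value ran from 6.57 to 7.13. The ratio of 3′ to 5′ actin probe sets ran from 2.62 to 11.0. It was highest on pOBcol2.3-GFP replicate 3, at 11.0 untreated and 10.5 after G-CSF, and ran from 2.62 to 6.57 on CD31 arrays. The same ratio for Gapdh ran from 5.88 to 20.9.

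Control probe sets (64), those with several symbols (932) or none (9160) were left out. Values were turned into log2(intensity + 16), the fraction of 0.333 with the lowest mean was dropped, and each gene was read from its brightest probe set, leaving 13453 genes. Array precision is limited by the number of arrays.

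Means of the 4 groups were fitted with limma 3.58.1 (R 4.3.3), whose variances were moderated with a trend in intensity. Calls are two-sided with a Benjamini-Hochberg adjusted p under 0.05 over all genes. The script was tested on simulated data. All 10 members are named, from each other list up to 4 called genes or the 2 largest changes, and the 5 genes most like each score. Genes named beyond this rule were chosen after their values were seen. Members and lists, as well as the motifs, were chosen with earlier results of these data known.

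The replicate numbers were used as a block within each sort as an alternative. Deviations of same-numbered G-CSF and untreated arrays from their group means were positively correlated. The correlations were 0.223, 0.288 and 0.315 in pOBcol2.3-GFP cells and 0.239, 0.377, 0.281 and 0.102 in CD31 cells. For CD31 replicate 4 the value of 0.102 was below the highest with an untreated array of another number, 0.178. Other alternatives were pseudocounts of 1 and 64, quantile normalisation, median centring, other filters and choices of probe set, only the arrays compared, array weights, no trend, and each array left out. After the data were seen 2 were added, the number of decimals in the deposited table as a term and pOBcol2.3-GFP replicates 2 and 3 alone. The table gave 3 decimals for pOBcol2.3-GFP replicates 2 and 3 of both treatments, and 1 for every other array. The number of decimals thus differed only within pOBcol2.3-GFP cells, and covers the untreated array that stood apart. What lies behind it was not tested.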

Additional observations from a re-analysis of the deposited data

Results flagged for a closer look

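S100a8 in G-CSF CD31 replicate 3 was far from the other arrays of its group, at 15.1 on the log2 scale against 15.4 on each of the other 3 (its intensity was 35478). It was the 1 of 28 comparisons of an array with its CD31 group that passed Dixon's 95% critical value for 4 samples, and chance gives about 1 in 20. The groups of 3 pOBcol2.3-GFP arrays were not examined in this way.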

How the results depend on the processing

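Array number, 3 or 4 a group, and the spread of the untreated pOBcol2.3-GFP arrays limit these results: the call of all 10 genes in pOBcol2.3-GFP cells rests on leaving out 1 array chosen after its values were seen. S100a8 lies near the top of the intensity scale, and Ngp reaches 82.7% of the brightest probe set of its array. Of the tests of single genes under other settings, 1296 kept direction and side of the threshold. Another 50 became calls, 11 lost their call and 58 changed sign. Of 176 score differences 174 moved by less than the replicate spread, which in untreated pOBcol2.3-GFP cells is wide because of replicate 2. The primary score difference in pOBcol2.3-GFP cells was 1.81 with all arrays and 3.36 without that replicate, and still counted as unmoved. The cause of the changes below was not tested, and for S100a8 no value could be had without probe sets that bind several transcripts. Array medians themselves differed by -0.18 (log2) between G-CSF and untreated CD31 arrays, -0.03 between G-CSF and untreated pOBcol2.3-GFP arrays, and by 0.39 after G-CSF and 0.23 untreated between the sorts.

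Leaving out 1 array in turn gave 0 to 10 members called higher and 4 to 472 genes called in pOBcol2.3-GFP cells, 0 to 3 members and 30 to 554 genes in CD31 cells, and 0 to 3 members and 0 to 21 genes for the difference of changes. Between untreated sorts it gave 0 to 1 members higher and 0 to 9 lower, with 2598 to 4530 genes called and 1328 to 2349 of them lower. After G-CSF it gave 0 to 2 members higher between sorts, with 3490 to 4874 genes called. Changes that turned sign ran from -0.31 to 2.70 for Elane in pOBcol2.3-GFP cells, and in CD31 cells from -0.14 to 0.056 for S100a8, -0.13 to 0.34 for Camp and -0.051 to 0.20 for Ngp. For the difference of changes they ran from -0.22 to 2.03 for Prtn3, -0.26 to 2.46 for Ctsg, -1.04 to 1.98 for Elane and -0.13 to 0.16 for Anxa1. Between untreated sorts they ran from -1.89 to 0.16 for Mpo, -2.77 to 0.25 for Elane, -1.56 to 0.69 for Prtn3 and -2.14 to 0.58 for Ctsg, and after G-CSF from -0.13 to 0.51 for S100a9, -0.47 to 0.34 for Ltf and -0.28 to 0.41 for Camp.

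Quantile normalisation gave 104 genes called in CD31 cells, 0 members higher between the sorts untreated and after G-CSF, 0.18 for S100a8 in CD31 cells, 0.24 for Elane and -0.31 for Anxa1 in the difference of changes, -0.28 for S100a9 between sorts after G-CSF, and 0.022 for the late score between sorts after G-CSF. Median centring gave 139 genes in CD31 cells (83 higher and 56 lower, against 61 and 154 as first processed), 0 members higher between the sorts in both treatments, 0.13 for S100a8, -0.14 for Anxa1 in the difference of changes, -0.065 for Ctsg and -0.23 for S100a9 between sorts after G-CSF, and 0.060 for the late score. Between sorts it gave 1452 genes higher and 3974 lower after G-CSF (2351 and 1936 as first processed) and 1239 higher and 2575 lower untreated (1831 and 1722).

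With the replicate number as a block 1 member (S100a9) and 64 genes were called in pOBcol2.3-GFP cells, 660 genes in CD31 cells and 1 gene for the difference of changes, and it changed no other call of a member. Only the arrays compared gave 2 genes in pOBcol2.3-GFP cells, 4 members and 462 genes in CD31 cells and 3 members higher between sorts after G-CSF. Array weights gave 8 members and 178 genes in pOBcol2.3-GFP cells, and 3 members and 1029 genes in CD31 cells. They also gave 0.013 for S100a8 in CD31 cells, 1.44 for Elane in the difference of changes and 8 members lower between untreated sorts. For only the arrays compared and for array weights, the number of all genes called between sorts is not given here. Averaging all probe sets of a gene gave 0 members in CD31 cells and 1 gene for the difference of changes, every probe set singly gave 6076 and 7218 calls between sorts untreated and after G-CSF, and a pseudocount of 1 gave 0.028 for Elane in the difference of changes. With the number of decimals as a term, the differences between sorts after G-CSF were -0.57 for Mpo, -0.66 for Prtn3, -1.20 for Ctsg, 0.21 for Ltf and -0.071 for S100a9. On pOBcol2.3-GFP replicates 2 and 3 alone 3 genes were called with G-CSF, and between untreated sorts 0 members were higher, with 0.16 for Mpo, 0.17 for Elane, 0.69 for Prtn3 and 0.58 for Ctsg.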
